A study of Mus musculus with 10 samples.

Results

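The proteasome genes of the mouse were followed in the embryonic dorsal telencephalon, the tissue that forms the cerebral cortex, with and without loss of the U11 small nuclear RNA. Members were the genes whose symbol begins with Psma, Psmb, Psmc, Psmd, Psme or Psmg and a number, leaving out 3 pseudogenes and Psmc3ip, which is not a proteasome gene. This gave 48 of the 38803 genes listed in each library. They comprised 7 genes of the 20S alpha ring, 7 of the 20S beta ring, 5 inducible or tissue-specific 20S subunits, 6 ATPases and 11 non-ATPase subunits of the 19S particle, 3 assembly chaperones of the 19S particle, 4 of the 20S particle, and 5 activator genes.

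Total RNA was sequenced at embryonic day 12 from 5 mutant libraries (Rnu11Flx/Flx::Emx1-Cre+/-) and 5 control libraries (Rnu11WT/Flx::Emx1-cre+/-), all of mixed C57/Bl6 - 129 SvJ background. Rnu11 encodes U11, a small RNA with which the minor spliceosome finds the 5' splice site of its own rare class of introns. Both groups carried Emx1-Cre, which is active in progenitors of the dorsal telencephalon, so the controls could lose 1 copy of Rnu11, and no library with intact Rnu11 was analysed here. Blood, vessels and microglia in the dissected tissue lie outside the Emx1 lineage. Whether the libraries stem from separate embryos is not in the labels, so p-values measure only the spread between these libraries, which may be technical.

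The proteasome is the large protease that degrades proteins tagged with ubiquitin. Its barrel-shaped 20S core is built of alpha rings, which gate the entry, and beta rings, which carry the proteolytic sites. The 19S particle caps the core. Its ring of ATPases unfolds substrates, and its non-ATPase subunits bind and remove the ubiquitin tag. Dividing progenitors use the proteasome to clear cyclins and other short-lived regulators. Psmc4, an ATPase of the 19S particle, is the member taken here as holding a minor intron. The intron was not located, because no genome sequence was used.

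Levels are given in FPKM, fragments for each kilobase of transcript in a library of standard size, as the authors deposited them. Rnu11 had 712, 473, 511, 1344 and 1421 FPKM in mutants 1 to 5, against 2386, 2031, 2817, 1913 and 2266 FPKM in controls 1 to 5. Each mutant lay below each control, and the mutant mean was 39.1% of the control mean (p = 0.00794 in a two-sided exact permutation test, the lowest value possible with 5 libraries a group). In the limma fit over all genes used for the members, its log2 difference of -1.50 did not pass (adjusted p = 0.118), and it passed at -1.65 with the library set as a term (limma, adjusted p = 0.00853). Fragments per library were not stated, and rough estimates from the smallest steps between low values ran from 12800000 to 21500000 in mutants and from 9730000 to 20700000 in controls. Mutants 4 and 5 and control 5 formed a second library set, with Rnu12 at 487 to 688 FPKM, against 5.91 to 33.8 FPKM in the 7 other libraries. Mutants averaged 24.7% of the control level of Rnu11 in the first set, against 61.01% within the second, which has 1 control. All 9 dorsal telencephalic markers averaged at least 1 FPKM, with a summed level of 245 to 311 FPKM in mutants and 150.3 to 263 FPKM in controls. Summed markers of ventral telencephalon lay at 1.21 to 14.1 FPKM in mutants and 1.41 to 43.9 FPKM in controls, with 43.9 FPKM in control 4 and at most 4.27 FPKM in the other controls. Control 4 also had the lowest dorsal sum. Erythroid markers summed to 3950 to 8467 FPKM in mutants and 3292 to 7950 FPKM in controls. In such bulk tissue, fewer cells of a type and less RNA per cell cannot be told apart.

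Promoters are shown for Psmc4, the member taken as holding a minor intron, and for Psmb5 and Psmb6, the catalytic subunits whose promoter holds a core antioxidant response element. RefSeq (GRCm38.p6) gave a window from 250 bases before to 50 bases after the start for 40 of the 48 members. The antioxidant response element is bound by Nfe2l2 and by Nfe2l1, a factor known to induce proteasome genes when proteolysis is inhibited. Its core TGACNNNGC, searched on both strands, lay in the windows of 6 of 40 members (15%) and in 12.5% of 27018 promoters of the same length. These members were Psmb5, Psmb6, Psmc6, Psmd12, Psmd9 and Psme4. The site of nuclear respiratory factor 1, a transcription factor of housekeeping promoters, was searched on both strands, with 1 base free, after the Psmc4 promoter had been read. It lay in 7 members (17.5%), against 4.79% of all promoters. These were Psma2, Psma3, Psma4, Psmc4, Psmc5, Psmd14 and Psmg1. The core of the interferon response element, also searched on both strands, lay in 5 members (12.5%), against 3.49% of all promoters. These were Psmb3, Psmd4, Psmd9, Psme1 and Psmg4. The windows of the inducible Psmb8 and Psmb9 held no match to it. CCAAT lay in 35% of members against 37.9% of all promoters, and TATAAA in 10% against 14.2%. The members' windows had a median GC content of 57.3%, against 52.7% for all promoters. The 250 bases before the start are printed 5' to 3' on the strand of the gene. In the Psmc4 sequence (chr7:28050093-28050342, minus strand) capitals mark the match to the site of nuclear respiratory factor 1, and in those of Psmb5 (chr14:54617996-54618245, minus strand) and Psmb6 (chr11:70525107-70525356, plus strand) the match to TGACNNNGC. No match to one of these 5 motifs overlapped a match to another in the members.
Psmc4: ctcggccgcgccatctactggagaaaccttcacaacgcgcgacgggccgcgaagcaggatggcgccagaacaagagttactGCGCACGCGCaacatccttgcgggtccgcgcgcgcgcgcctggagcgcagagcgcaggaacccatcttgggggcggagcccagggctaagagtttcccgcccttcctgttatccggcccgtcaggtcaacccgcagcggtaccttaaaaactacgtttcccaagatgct
Psmb5: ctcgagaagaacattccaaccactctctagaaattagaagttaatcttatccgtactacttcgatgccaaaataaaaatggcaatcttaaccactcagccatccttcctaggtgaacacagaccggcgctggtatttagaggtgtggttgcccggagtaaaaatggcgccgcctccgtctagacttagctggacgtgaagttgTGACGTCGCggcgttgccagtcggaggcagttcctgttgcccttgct
Psmb6: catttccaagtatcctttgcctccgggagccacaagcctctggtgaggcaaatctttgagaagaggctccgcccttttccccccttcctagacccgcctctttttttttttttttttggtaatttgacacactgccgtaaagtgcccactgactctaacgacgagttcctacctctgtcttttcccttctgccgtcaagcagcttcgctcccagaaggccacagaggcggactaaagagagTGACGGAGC

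No proteasome gene passed the test between mutants and controls. Of the 48 members, 44 reached at least 1 FPKM in at least 5 libraries and were tested as log2(FPKM + 1) with limma. Of these, 0 had a Benjamini-Hochberg adjusted p under 0.05, against 0.155% of the 13522 genes tested (0.0887% higher and 0.0666% lower). At an unadjusted p under 0.05 by limma, Psme1 was higher in mutants (1 member, background 7.69%) and Psmb4 and Psme2 were lower (2 members, background 1.07%). The 44 log2 differences lay between -0.36 for Psmb4 and 0.29 for Psmb2, with a median of 0.040, beside a median of 0.11 over all genes tested. Of the members, 29 lay above 0 and 15 below, and of all genes tested 24.3% lay below 0. Relative to the median of all genes, 16 members lay above and 28 below. In 0 of 44 members were the groups free of overlap, against 1.52% of all genes with mutants higher and 0.377% with mutants lower. When libraries were rescaled to a common median ratio, 12 members lay above 0 and 32 below. Rescaling also moved the median of all genes to -0.0092, and the share of all genes below 0 was not counted there. With the library set as a term in limma, 0 members passed (background 0.547%), with 1 higher (background 10.9%) and 2 lower (background 1.71%) at an unadjusted p under 0.05. In that fit 20 of 44 members lay below 0, against 27.2% of all genes.

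The 95% intervals bound what these libraries could have shown in the fit on FPKM as deposited. Intervals were not computed with median-ratio rescaling, under which the log2 difference of Psmb4 was -0.50 and the members' median -0.094. They are intervals of the log2 difference of FPKM + 1, a scale that understates changes of low genes. The members' interval had a median half-width of 0.26. For 42 of 44 members it lay inside a 1.5-fold change of FPKM + 1 in either direction. So it did for 70.5% of all genes tested. The exceptions were Psmb4, with an interval from -0.64 to -0.078, and Psmb2, with an interval from -0.076 to 0.66. Before adjustment over all genes, 3 intervals excluded 0, those of Psmb4, Psme1 (0.0083 to 0.43) and Psme2 (-0.49 to -0.0071).

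**Figure D1:**
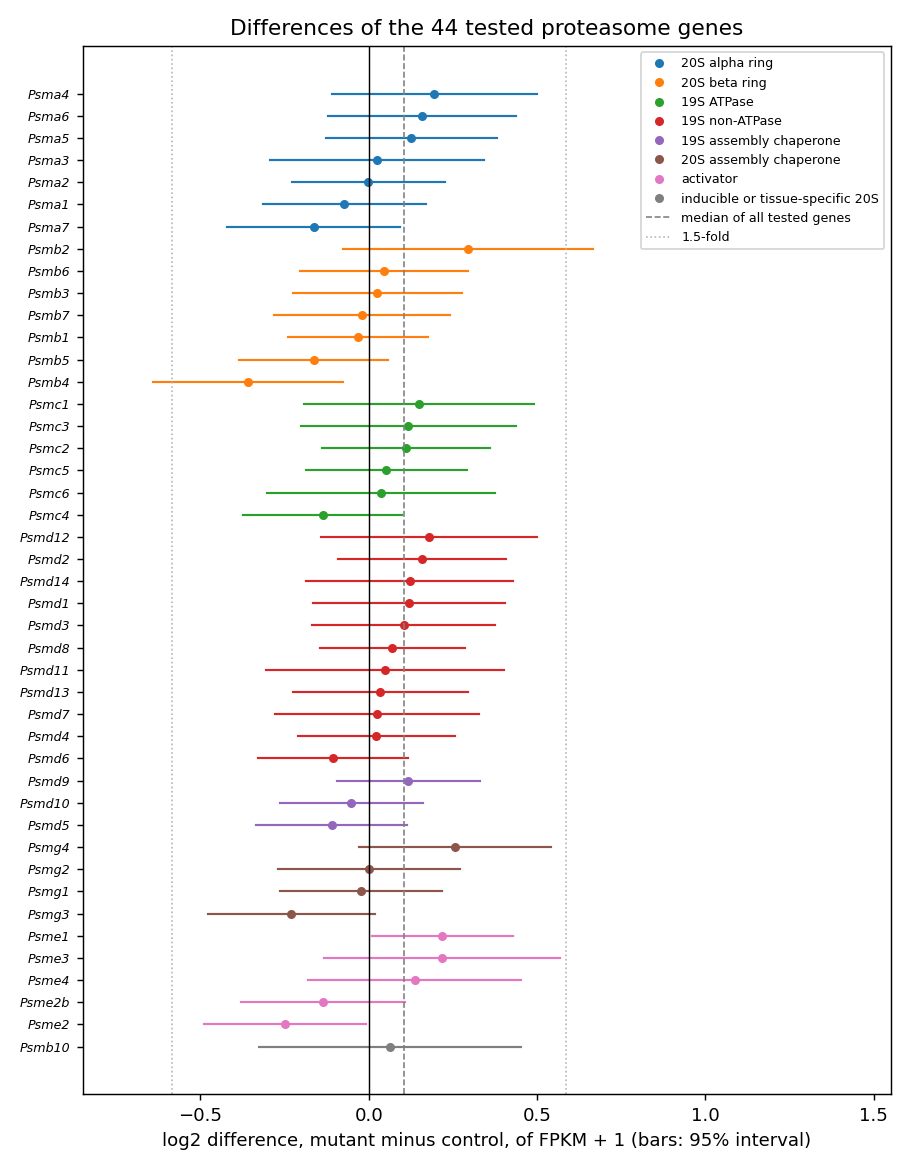
Log2 difference, mutant minus control, of FPKM + 1 for the 44 tested proteasome genes, coloured by role, with 95% intervals from limma as bars. The dashed line is the median of all tested genes and the dotted lines mark a 1.5-fold change of FPKM + 1. The points run from -0.36 for Psmb4 to 0.29 for Psmb2, and 42 of the 44 intervals lie inside the dotted lines.

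Levels per length differed far more between members than between genotypes. Means over all 10 libraries ran in the alpha ring from 10.5 FPKM for Psma5 to 323 FPKM for Psma7, a ratio of 30.8. In the beta ring they ran from 28.8 FPKM for Psmb3 to 237 FPKM for Psmb4, a ratio of 8.25. Psma7 and Psmb4 were also the highest of all core genes. The 19S ATPases spanned 23.98 FPKM for Psmc2 to 133 FPKM for Psmc4, a ratio of 5.53. The non-ATPase subunits spanned 7.29 FPKM for Psmd11 to 126 FPKM for Psmd6, a ratio of 17.3. Which transcript lengths the authors used is not stated, so levels of genes with several transcripts are less certain.

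**Figure D2:**
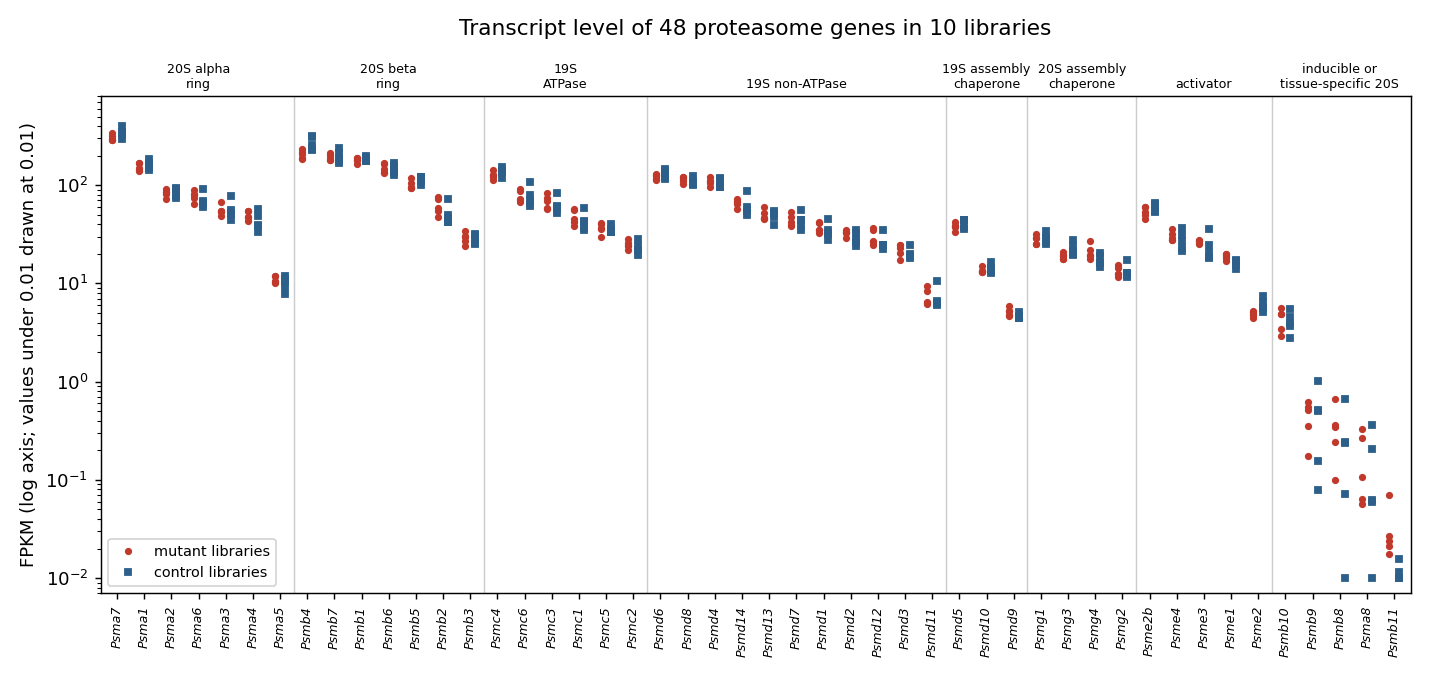
FPKM (log axis) of the 48 proteasome genes in 5 mutant libraries (red circles) and 5 control libraries (blue squares), ordered by role and mean level, with values under 0.01 drawn at 0.01. Mutant and control points overlap in each of the 44 tested genes, while mean levels of core genes run from 7.29 FPKM for Psmd11 to 323 FPKM for Psma7.

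The alpha ring, whose subunits gate the core, summed to 736 ± 41.4 FPKM in mutants and 768 ± 57.2 FPKM in controls (SD, n = 5 each). Of its 7 genes 0 passed. Psma7 had 286, 336, 318, 295 and 287 FPKM in mutants 1 to 5, against 405, 321, 351, 339.8 and 294 FPKM in controls 1 to 5. Its groups overlapped, with control 1 the highest library (log2 difference -0.16, limma, adjusted p = 0.702). Its difference was -0.10 without control 1. Psma4 had 42.8, 47.3, 47.5, 54.05 and 54.4 FPKM in mutants 1 to 5, against 48.6, 33.7, 39.5, 38.6 and 56.7 FPKM in controls 1 to 5. The groups overlapped there too, and control 5 was the highest library (log2 difference 0.19, limma, adjusted p = 0.7003). Its difference was 0.11 without control 2 and 0.30 without control 5. The other alpha genes had log2 differences from -0.072 for Psma1 to 0.16 for Psma6, with Psma1, Psma2, Psma3, Psma5 and Psma6 tested.

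The beta ring, which holds the proteolytic sites, held both ends of the range of differences. Its 7 genes summed to 924 ± 35.7 FPKM in mutants and 988 ± 75.97 FPKM in controls (SD, n = 5 each), and 0 passed. Psmb4, a non-catalytic subunit, had 217, 235, 209, 189 and 186 FPKM in mutants 1 to 5, against 308, 255, 232, 314 and 229 FPKM in controls 1 to 5. Mutant 2 lay above controls 3 and 5, and the 4 other mutants lay below each control. The log2 difference was -0.36 (SE 0.13, limma, adjusted p = 0.461). It was -0.32 in the first library set and -0.29 in the second, where it rests on a single control. Adding the library set as a term gave -0.31 (limma, adjusted p = 0.244).

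Psmb2, another non-catalytic subunit, had 55.2, 47.5, 58.8, 72.9 and 74.98 FPKM in mutants 1 to 5, against 49.6, 42.1, 42.6, 45.95 and 72.7 FPKM in controls 1 to 5. The libraries of the second set, mutants 4 and 5 and control 5, were the 3 highest. The log2 difference was 0.29 (limma, adjusted p = 0.634), or 0.25 among libraries of the first set and 0.024 among those of the second. The catalytic subunits are Psmb5, of chymotrypsin-like activity, Psmb6, of caspase-like activity, and Psmb7, of trypsin-like activity. Psmb5 averaged 101 ± 10.1 FPKM in mutants and 113 ± 7.88 FPKM in controls (SD, n = 5 each), with a log2 difference of -0.16 (limma, adjusted p = 0.654). Psmb6 averaged 149.9 ± 16.3 FPKM in mutants and 145 ± 15.5 FPKM in controls, with a log2 difference of 0.045 (limma, adjusted p = 0.927). Psmb7, which overlaps Nek6 on the opposite strand, averaged 194 ± 14.5 FPKM in mutants and 198 ± 28.4 FPKM in controls, with a log2 difference of -0.020 (limma, adjusted p = 0.972). The other beta genes, Psmb1 and Psmb3, had log2 differences of -0.031 and 0.025.

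Psmb8, Psmb9 and Psmb10 replace the catalytic subunits in the immunoproteasome of immune cells and of cells exposed to interferon. Psmb10 had 4.87, 5.68, 4.85, 2.95 and 3.44 FPKM in mutants 1 to 5, against 3.68, 5.54, 4.602, 3.99 and 2.76 FPKM in controls 1 to 5. It was the only tested member that lay lower in each library of the second set than in any of the first, as 6.28% of all genes tested did (log2 difference 0.064, limma, adjusted p = 0.936). Its sign turned negative under rescaling, under quantile normalization and without mutant 2 or control 5. Psmb8 had 0.348, 0.244, 0.6596, 0.0997 and 0.358 FPKM in mutants 1 to 5, against 0.241, 0.6602, 0.0722, 0 and 0.235 FPKM in controls 1 to 5. Psmb9 had 0.175, 0.614, 0.549, 0.513 and 0.354 FPKM in mutants 1 to 5, against 0.155, 0.507, 0.52, 0.0792 and 1.01 FPKM in controls 1 to 5. The groups overlapped for both genes. The testis-specific Psma8 had 0.265, 0.108, 0.327, 0.0636 and 0.0571 FPKM in mutants 1 to 5, against 0.366, 0.05902, 0.0617, 0 and 0.208 FPKM in controls 1 to 5, with groups that overlapped. The thymus-specific Psmb11 had 0.07097, 0.02702, 0.0175, 0.0238 and 0.0214 FPKM in mutants 1 to 5, against 0, 0, 0.0116, 0 and 0.0156 FPKM in controls 1 to 5. Each mutant thus lay above each control at very low levels, a separation whose share among genes that low was not counted. These 4 genes were too low for the test. By the estimated depths, 1 fragment in a transcript of 2000 bases was worth 0.0233 to 0.0392 FPKM in mutants. In controls it was worth 0.0242 to 0.0514 FPKM. The longest annotated transcript of Psmb11 has 4247 bases, and at that length 1 fragment would be worth less. Summed markers of microglia and macrophages, cells that use the immunoproteasome, lay at 26.2 to 86.6 FPKM in mutants and 17.9 to 42.3 FPKM in controls. Of these 7 markers, 6 averaged at least 1 FPKM, 0 were at 0 in all libraries, and their part in the level of Psmb10 was not tested.

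Psmc4 was lower on average in mutants, by about the spread between libraries, and did not pass. The gene (chromosome 7, 28041707 to 28050101 in GRCm38, minus strand) has 10 introns in its longest annotated transcript and overlaps no other gene of the FPKM lists. It had 113, 127, 126, 144 and 120.1 FPKM in mutants 1 to 5, against 140.4, 137, 119, 155 and 144 FPKM in controls 1 to 5. Controls 1, 2, 4 and 5 lay above mutants 1, 2, 3 and 5, while control 3 was the second lowest library and mutant 4 the third highest. The means were 126 ± 11.7 FPKM in mutants and 139 ± 13.2 FPKM in controls (SD, n = 5 each), so that mutants averaged 90.8% of controls (exact two-sided permutation test, p = 0.143). The log2 difference was -0.14, with a 95% interval from -0.37 to 0.098 (limma, adjusted p = 0.7304). Set against the median of all genes it was -0.24. It was -0.17 in the first library set and -0.13 in the second, where it rests on a single control. The difference was -0.27 with median-ratio rescaling and -0.22 with quantile normalization, with an unadjusted p under 0.05 by limma in both and adjusted p-values of 0.512 and 0.598.

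Psmc4 stood above each other ATPase in each library, by a smaller ratio on average in mutants. Its ratio to the geometric mean of Psmc1, Psmc2, Psmc3, Psmc5 and Psmc6 was 2.82, 2.76, 2.91, 2.81 and 2.21 in mutants 1 to 5, against 3.25, 3.59, 2.998, 3.59 and 2.53 in controls 1 to 5. In the first library set each mutant lay below each control, and in the second the single control lay between the mutants. The ratio averaged 2.703 ± 0.282 in mutants and 3.19 ± 0.447 in controls (SD, n = 5 each). It was not a planned comparison and is given as a description, with no test. How often other such ratios separate the groups was not counted. Psmc1, Psmc2, Psmc3 and Psmc6 lay higher in each library of the second set than in any of the first, so the group means also carry the library set. The 5 other ATPases had log2 differences from 0.036 for Psmc6 to 0.15 for Psmc1, and 0 passed. Of these, Psmc2 had 21.7, 23.97, 24.7, 25.9 and 28.2 FPKM in mutants 1 to 5, against 21.7, 21.8, 19.6, 23.96 and 28.3 FPKM in controls 1 to 5. Its 3 highest libraries were those of the second set (log2 difference 0.11, limma, adjusted p = 0.793), and its sign turned to -0.019 when libraries were rescaled to a common median ratio. It was 0.067 without mutant 5, 0.058 without control 3 and 0.18 without control 5.

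**Figure D3:**
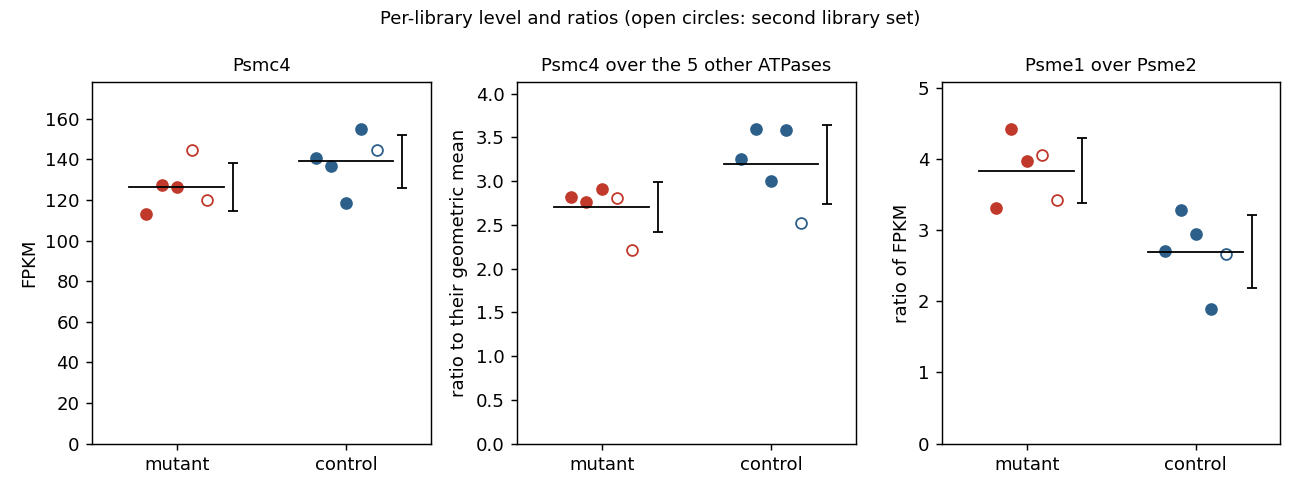
Psmc4 in FPKM (left), its ratio to the geometric mean of the 5 other ATPases (middle) and the ratio of Psme1 to Psme2 (right) in 5 mutant (red) and 5 control (blue) libraries; lines are group means, bars SD, and open circles the second library set. Psmc4 averages 126 FPKM in mutants and 139 FPKM in controls with overlapping groups. The ratio of Psme1 to Psme2, chosen after the values of both genes were seen, is at least 3.31 in mutants and at most 3.28 in controls.

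The 11 non-ATPase subunits, which include the ubiquitin receptor Psmd4 and the deubiquitinase Psmd14, summed to 633 ± 37.5 FPKM in mutants and 618 ± 63.8 FPKM in controls (SD, n = 5 each). Of them 0 passed. Psmd2, a scaffold subunit that binds substrate shuttles, had 29.1, 32.6, 33.1, 35.1 and 33.8 FPKM in mutants 1 to 5, against 28.2, 24.3, 26.7, 32.7 and 35.3 FPKM in controls 1 to 5 (log2 difference 0.16, limma, adjusted p = 0.704). Psmd12, a subunit of the lid of the 19S particle, had 24.5, 27.1, 26.4, 36.9 and 34.6 FPKM in mutants 1 to 5, against 24.8, 22.5, 24.8, 24.3 and 35.01 FPKM in controls 1 to 5 (log2 difference 0.18, limma, adjusted p = 0.737). Groups overlapped in both genes, and the 3 highest libraries of each were those of the second set. The difference of Psmd2 was 0.094 without control 2. That of Psmd12 was 0.10 without mutant 4, 0.28 without control 5 and 0.084 with the library set as a term. Psmd14 averaged 66.1 ± 5.39 FPKM in mutants and 61.6 ± 14.6 FPKM in controls, and Psmd4 averaged 109 ± 9.07 FPKM in mutants and 107 ± 11.1 FPKM in controls (SD, n = 5 each). The lowest log2 difference among the 11 was -0.11 for Psmd6, and the highest that of Psmd12.

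Assembly chaperones, which help to build the particle, had 0 calls among 7. Psmg3 and Psmg4, which act as a pair on the alpha ring, lay on opposite sides of 0. Psmg3 had 17.7, 21.1, 17.6, 19.1 and 19.6 FPKM in mutants 1 to 5, against 24.3, 19.6, 20.1, 27.9 and 21.3 FPKM in controls 1 to 5. Mutant 2 lay above controls 2 and 3, and the other mutants lay below each control (log2 difference -0.23, limma, adjusted p = 0.592). Psmg4 had 17.7, 19.1, 26.7, 19.2 and 21.7 FPKM in mutants 1 to 5, against 19.2, 16.3, 14.7, 20.2 and 15.96 FPKM in controls 1 to 5. Mutants 3 and 5 were the highest libraries, and the groups overlapped (log2 difference 0.26, limma, adjusted p = 0.594). Without mutant 3 the difference was 0.17. Psmg1 and Psmg2, the other chaperone pair of the 20S particle, had log2 differences of -0.024 and 0.0018.

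Among the chaperones of the 19S ATPase ring, Psmd5 had 37.5, 38.4, 33.7, 38.4 and 41.9 FPKM in mutants 1 to 5, against 44.2, 35.7, 37.3, 44.7 and 44.1 FPKM in controls 1 to 5 (log2 difference -0.11, limma, adjusted p = 0.771). Psmd9 had 4.66, 5.84, 4.81, 5.24 and 5.21 FPKM in mutants 1 to 5, against 4.69, 4.44, 4.61, 4.46 and 5.12 FPKM in controls 1 to 5 (log2 difference 0.12, limma, adjusted p = 0.742). The difference of Psmd5 was -0.070 without mutant 3, and that of Psmd9 0.078 without mutant 2. Groups overlapped in both, and the sign of Psmd9 turned to -0.016 under quantile normalization. Psmd10 had a log2 difference of -0.052.

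Psme1 and Psme2 encode the alpha and beta subunits of PA28, an interferon-inducible cap that opens the 20S core without ubiquitin. Psme1 had 17.04, 19.8, 19.02, 19.9 and 18.04 FPKM in mutants 1 to 5, against 15.3, 16.9, 16.5, 13.97 and 17.4 FPKM in controls 1 to 5. Control 5 lay above mutant 1, and each other control lay below each mutant (log2 difference 0.22, SE 0.096, limma, adjusted p = 0.564). Psme2 had 5.14, 4.48, 4.79, 4.91 and 5.27 FPKM in mutants 1 to 5, against 5.67, 5.14, 5.59, 7.38 and 6.53 FPKM in controls 1 to 5. Control 2, the lowest control, lay below mutants 1 and 5, and each other control lay above each mutant (log2 difference -0.25, SE 0.11, limma, adjusted p = 0.565).

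The ratio of Psme1 to Psme2 was computed after these values had been seen and is given with no test. It was 3.31, 4.42, 3.97, 4.06 and 3.42 in mutants 1 to 5, against 2.702, 3.28, 2.95, 1.89 and 2.66 in controls 1 to 5. The groups did not overlap, with mutant 1 close to control 2. Psme2b, annotated as a retrogene of 1 exon and close to Psme2 in sequence, lay at 45.1 to 60.5 FPKM in mutants and 52.9 to 65.2 FPKM in controls (log2 difference -0.14). Reads of Psme2 and Psme2b may have been split between them, so both levels are uncertain. With Psme2 and Psme2b added together the ratio was 0.291 to 0.363 in mutants and 0.216 to 0.284 in controls. Psme1 overlaps Emc9 on the opposite strand, and whether the authors counted by strand is not stated. Psma4, Psmb8, Psmb9, Psmb10, Psmd5, Psmd9, Psmd14 and Psme4, among other members, also overlap a gene on the opposite strand. The summed microglial and macrophage markers given above reached 79.6, 55.8 and 86.6 FPKM in mutants 1 to 3, and their part in these levels was not tested.

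Psme3, the nuclear PA28 gamma, and Psme4, the activator PA200, did not pass either. Psme3, added to the named genes after its values were seen, had 25.1, 27.99, 27.1, 27.03 and 25.6 FPKM in mutants 1 to 5, against 18.1, 18.4, 20.7, 24.4 and 35.5 FPKM in controls 1 to 5. Control 5 was the highest of all 10 libraries and the 4 other controls were the lowest. The log2 difference was 0.22 (limma, adjusted p = 0.709). It was 0.38 in the first library set (limma, adjusted p = 0.174) and -0.42 in the second, where it rests on control 5. Without control 1 it was 0.14, and without control 5 it was 0.37 (limma, adjusted p = 0.109). In the first set Psme1 and Psme3 were the 2 of 44 members with each mutant above each control, as 16.7% of all genes tested were, and in 0 was each mutant below each control, against 1.44%. Psme4 averaged 30.4 ± 3.59 FPKM in mutants and 27.96 ± 6.14 FPKM in controls (SD, n = 5 each).

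The libraries differed in the level of many members in a way that crossed genotype. Each library of the second set lay above each of the first for 14 of 44 members (31.8%), against 15.5% of all genes tested. These were Psma1, Psma4, Psma6, Psmb2, Psmc1, Psmc2, Psmc3, Psmc6, Psmd1, Psmd2, Psmd7, Psmd12, Psmd14 and Psmg2. The median deviation of the 44 members from their own means, on the log2 scale, was -0.11, 0.041, -0.017, 0.057 and 0.059 in mutants 1 to 5, against 0.0094, -0.14, -0.12, 0.0080 and 0.14 in controls 1 to 5. Control 5 stood highest and controls 2 and 3 lowest, with the mutants between them. Control 4, the library with the most ventral markers, was the highest of all for Psmb4, Psmc4, Psme2 and Psmg3. It was also the highest for Psmb5, Psmb7, Psmd3, Psmd5, Psmd6, Psmd8, Psmd10, Psmd11 and Psmg1. Of these, Psmd3, Psmd8 and Psmd11 had log2 differences above 0. The share of all genes highest in control 4 was not computed. Without control 4 the log2 differences were -0.30 for Psmb4, -0.097 for Psmc4, -0.18 for Psme2 and -0.15 for Psmg3. Psme2 then had an unadjusted p above 0.05 by limma. The part of ventral tissue in these levels was not tested. Across the 31 alpha, beta, ATPase and non-ATPase genes the mean level was 6.01 ± 0.080 in mutants and 5.97 ± 0.13 in controls on the log2(FPKM + 1) scale (SD, n = 5 each).

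**Figure D4:**
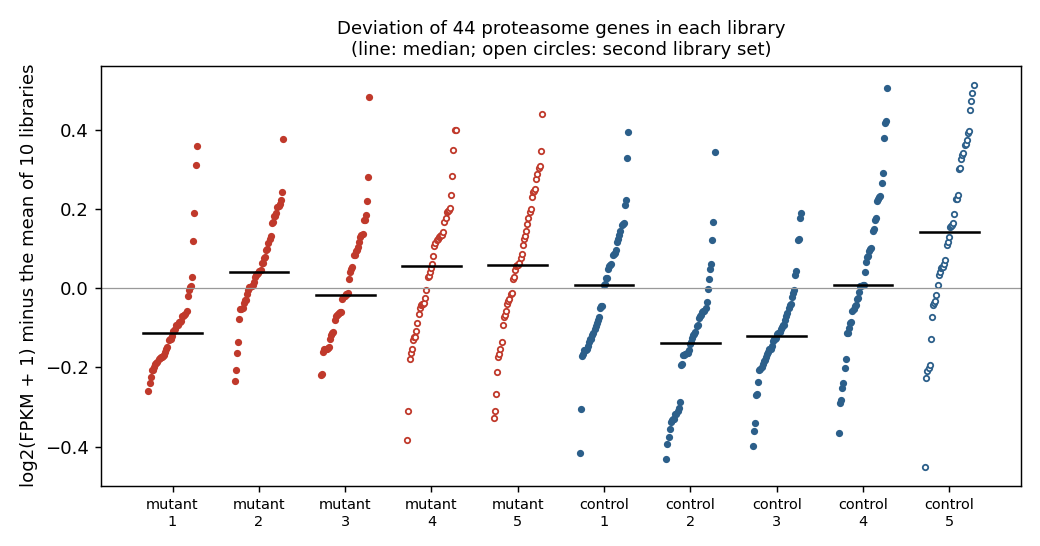
Deviation of each of the 44 tested proteasome genes (points, sorted within a library) from its mean over 10 libraries, in log2(FPKM + 1), for 5 mutant (red) and 5 control (blue) libraries; lines are medians and open circles the second library set. Medians run from -0.11 to 0.059 in mutants and from -0.14 to 0.14 in controls.

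Genes that regulate the proteasome or carry substrates to it had no call. All 30 genes of this list were tested with limma and 0 passed, with 4 higher and 1 lower at an unadjusted p under 0.05 (background 7.69% and 1.07%). Their median log2 difference was 0.043, beside 0.11 over all genes tested. Nfe2l2, the transcription factor of the oxidative stress response, had 11.9, 10.7, 11.2, 14.03 and 12.97 FPKM in mutants 1 to 5, against 8.98, 9.31, 8.22, 9.05 and 12.1 FPKM in controls 1 to 5. Each mutant lay above controls 1 to 4, and control 5 lay above mutants 1 to 3 (log2 difference 0.33, SE 0.12, limma, adjusted p = 0.466). Uba1, the enzyme that activates ubiquitin, had 68.03, 72.5, 76.6, 65.4 and 62.2 FPKM in mutants 1 to 5, against 52.7, 50.8, 54.8, 68.1 and 61.7 FPKM in controls 1 to 5. Controls 1, 2, 3 and 5 lay below each mutant, and control 4 lay above mutants 1, 4 and 5 (log2 difference 0.26, limma, adjusted p = 0.539).

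The remaining genes named here were chosen after their values had been seen. Nfe2l1 averaged 23.3 ± 1.94 FPKM in mutants and 23.9 ± 6.28 FPKM in controls (SD, n = 5 each), with a log2 difference of 0.00021 (limma, adjusted p = 0.9997). Pomp, the maturation factor of the beta ring, averaged 66.03 ± 3.93 FPKM in mutants and 56.4 ± 6.53 FPKM in controls (log2 difference 0.23, limma, adjusted p = 0.565). Rad23b, a shuttle of ubiquitin-tagged substrates, averaged 54.7 ± 8.34 FPKM in mutants and 44.4 ± 8.05 FPKM in controls (log2 difference 0.30, limma, adjusted p = 0.568). Usp14, a deubiquitinase bound to the 19S particle, averaged 42.97 ± 3.78 FPKM in mutants and 51.9 ± 7.25 FPKM in controls (log2 difference -0.26, limma, adjusted p = 0.564). Pomp, Rad23b, Nfe2l2 and Uba1 were the 4 genes higher at an unadjusted p under 0.05 by limma, and Usp14 the 1 lower.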

How the data were processed

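RNA of dissected dorsal telencephalon was extracted with Trizol and made into stranded libraries after ribosomal RNA removal, per the labels' protocols. HISAT2 and GRCm38 (mm10) are named in the submitters' processing notes. The authors deposited 1 list of FPKM values per library. Which program computed them, with what annotation and strand setting, was not given in the sources used here. A gene was tested if 5 or more libraries had at least 1 FPKM. The fit, on log2(FPKM + 1), used limma 3.58.1 (R 4.3.3) with trend and robust moderation, genotype as the single term and Benjamini-Hochberg adjustment over 13522 genes. This scale understates changes of low genes. The test was checked on simulated data. Psmc4 and Rnu11 were also compared by exact permutation tests (scipy 1.17.1). Library sets were defined by Rnu12. Gene positions are from GENCODE M21 (GRCm38), in which all 48 members matched by symbol. Values in every library were given for Psmc4, members past the threshold or without overlap, tissue-specific subunits, the 2 of each role with the smallest p, and 2 regulators. The members, lists and library sets were chosen with earlier results of these data known. Alternatives changed the pseudocount, filter, scaling, model and libraries. Single values of some genes of the regulator list are not reported here.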

Additional observations from a re-analysis of the deposited data

Results flagged for a closer look

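In 4 of 46 groups of 5 libraries examined, a single library stood apart from the other 4 by more than 0.71 of the group's range. Among independent groups of normally distributed values, chance gives about 1 in 20. The groups here share the same libraries, so that rate is only a rough guide. Control 5 stood apart above the other controls for 3 genes. It had 35.01 FPKM of Psmd12, against at most 24.8 FPKM in the other controls. It had 72.7 FPKM of Psmb2, against at most 49.6 FPKM in the other controls, and 12.1 FPKM of Nfe2l2, against at most 9.31 FPKM. Mutants 4 and 5, of the same library set, had 36.9 and 34.6 FPKM of Psmd12. Mutant 1 had 0.0710 FPKM of Psmb11, against at most 0.0270 FPKM in the other mutants, a level of few fragments.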

How the results depend on the processing

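No proteasome gene and no gene of the regulator list passed the threshold under the alternatives run (limma). The smallest adjusted p of a member was 0.109, for Psme3 without control 5. That fit had 7 members higher at an unadjusted p under 0.05, against 19.2% of all genes. The log2 difference of Psmc4 ran from -0.19 to -0.097 without single libraries and was -0.27 with median-ratio rescaling. The median of the members ran from 0.019 to 0.076 without single libraries and was -0.094 with rescaling, which moved the median of all genes to -0.0092. With rescaling, 8 members were lower at an unadjusted p under 0.05 (Psmb4, Psmb5, Psmc4, Psmd5, Psmd6, Psmd10, Psme2 and Psmg3), against 4.62% of all genes. Calls over all genes numbered 12 higher and 9 lower, or 11 and 17 with rescaling, and 2 to 79 in all without single libraries, the most without control 5. Psmb10 reversed to -0.051 with rescaling, -0.075 with quantile normalization, -0.023 without mutant 2 and -0.041 without control 5. Without single libraries Psmb10 ran from -0.041 to 0.17. Psmc2 reversed to -0.019 with rescaling and Psmd9 to -0.016 with quantile normalization. The causes were not tested. Rnu11 in mutants lay at 33.3 to 43.7% of controls without single libraries, and at 24.7% in the first library set and 61.01% in the second (in the first, p = 0.0571 in an exact permutation test, the lowest possible there). With the replicate number as a block, 0 members passed and Psmc4 had a log2 difference of -0.14 (limma, adjusted p = 0.647). With the mean of each gene in its group subtracted, same-numbered libraries correlated at -0.107 to 0.521, so the numbers were not taken to pair them. On that measure mutants 1 and 4 correlated best with a control of another number. Depth is known only as an estimate, and members averaging under 1 FPKM were described by library and not tested in the main fit.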
